A study of Mus musculus with 12 samples.

Results

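The genes described here are 7 of the 55679 genes in the deposited table: *Slc6a4*, *Maoa*, *Maob*, *Tph1*, *Htr1b*, *Htr2a* and *Htr2b*, which make, carry, degrade or sense serotonin. They were picked by name, and *Slc6a4* was picked because it had come up in an earlier comparison of knockout (KO) with wildtype (WT) mice in these same libraries. For that reason the KO against WT differences of the 7 genes are descriptions with no p-value, and counts called between genotypes are printed only beside the share over all genes. The lung against heart comparisons were not used to pick the genes and are tested.

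RNA-Seq was performed on whole lung and whole heart of 6 male mice aged 9–13 weeks of the 129S6/SvEvTac strain. Of these mice 3 were WT for *Adam19* and 3 were KO, so that each of the 4 groups holds 3 libraries. *Adam19* encodes a membrane-bound metalloprotease. The KO mice were homozygous for an allele in which exons 6 and 7 of *Adam19* gave way to a tdTomato reporter read in frame, with a hygromycin resistance cassette in the opposite orientation. This was a germline change present in all tissues. The labels name no treatment. Each KO and WT mouse gave a lung and a heart, and the prefixes in the mouse numbers were not shared between genotypes, so that anything that follows those prefixes cannot be told apart from genotype.

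Libraries held between 17674788 and 35862932 estimated reads. The hearts of WT replicates 2 and 3 were the shallowest hearts, at 20381284 and 18392292, against 31784742 to 35862932 in the other 4. A small cytoplasmic RNA, *Rn7s1*, took 2.10% to 34.0% of the summed gene level of a lung library. *Adam19* had a mean gene value of 9.22 in WT lungs and 3.72 in KO lungs, and of 9.56 in WT hearts and 6.42 in KO hearts (log2, n = 3 each). In estimated reads, KO lungs held 0.918 to 3.52 against 902 to 1237 in WT lungs. KO hearts held 7.40 to 12.1 against 658 to 1218 in WT hearts. The tissue labels were borne out by their markers. The log2 summed level of 5 heart muscle markers was 20.6 to 20.9 in hearts and 12.9 to 14.5 in lungs, and that of 5 lung epithelial markers was 18.5 to 18.9 in lungs and 6.35 to 10.5 in hearts. A whole organ was measured, so fewer cells of a type and less RNA per cell cannot be told apart.

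Serotonin is made from tryptophan by tryptophan hydroxylase, of which *Tph1* encodes the form used outside the brain, mainly in the gut. Platelets take it up from blood through the serotonin transporter, encoded by *Slc6a4*, and the endothelium of the lung clears much of what remains as blood passes through. Inside cells it is oxidised by monoamine oxidase A (*Maoa*), while monoamine oxidase B (*Maob*) prefers other amines. Both sit on the outer mitochondrial membrane. *Htr1b*, *Htr2a* and *Htr2b* encode G protein-coupled receptors found on vessels, and the *Htr2b* receptor is known for its role in heart valves and pulmonary arteries.

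The promoters of *Slc6a4* and *Maoa* are shown because these members passed the test between lung and heart in both genotypes. RefSeq promoter entries, 250 bases before to 50 after the annotated start on GRCm38.p6, were found for 6 of the 7 genes. *Maob* had none. Capitals mark matches, on either strand, to any of 4 motifs. The GC box was searched as GGGCGG. The CCAAT box was searched by the letters of its name, and the TATA box as TATAAA. The core of the cyclic AMP response element was searched as TGACG. No 2 matches overlapped. The *Slc6a4* window lies at chr11:76998347-76998646 and that of *Maoa* at chrX:16619448-16619747, both on the plus strand.
*Slc6a4*: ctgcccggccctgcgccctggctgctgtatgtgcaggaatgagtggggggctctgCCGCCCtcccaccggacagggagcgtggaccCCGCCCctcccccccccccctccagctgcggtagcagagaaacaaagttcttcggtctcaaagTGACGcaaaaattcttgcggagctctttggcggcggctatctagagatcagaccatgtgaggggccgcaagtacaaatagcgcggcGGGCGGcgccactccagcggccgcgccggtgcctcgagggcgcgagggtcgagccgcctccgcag
*Maoa*: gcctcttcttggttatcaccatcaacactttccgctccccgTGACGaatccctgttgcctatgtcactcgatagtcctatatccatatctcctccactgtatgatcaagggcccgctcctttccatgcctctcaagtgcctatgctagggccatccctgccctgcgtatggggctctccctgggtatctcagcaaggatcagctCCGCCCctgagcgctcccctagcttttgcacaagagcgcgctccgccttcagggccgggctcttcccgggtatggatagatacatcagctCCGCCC
*Slc6a4* held 3 GC boxes, at -195, -164 and -15 bases from the RefSeq start, and TGACG at -101. *Maoa* held GC boxes at -46 and 44 and TGACG at -209. Neither window held a CCAAT or TATA box in those letters. Of all 32851 RefSeq promoters of this length, 35.7% held a GC box, 37.4% a CCAAT box, 13.6% a TATA box and 20.8% the response element core. The GC content was 67.7% for *Slc6a4* and 57.7% for *Maoa*, against a median of 52.7% over all promoters. Each sequence matched its GRCm39 chromosome exactly once, from base 76889173 of chromosome 11 and from base 16485687 of chromosome X. In the GENCODE annotation of GRCm39 the *Slc6a4* window lies inside the gene, downstream of the annotated gene start at 76888903, and the *Maoa* window spans the gene start at 16485893.

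*Tph1*, the enzyme gene of serotonin synthesis, was at the limit of detection. The 3 WT lungs and KO lung replicate 1 had a value of 0, and it reached 2.24 and 3.01 (log2) in KO lung replicates 2 and 3. WT hearts read 2.52, 1.58 and 1.29, and KO hearts 1.95, 2.05 and 2.32. No library held more than 5.04 estimated *Tph1* reads, and 10 of the 12 held fewer than 3. WT hearts lay above WT lungs without overlap, at counts that are themselves under 3 reads, and KO lungs and KO hearts overlapped. The gene lies on GRCm39 chromosome 7 from 46294065 to 46321965, minus strand. It did not pass the filter on low values, which asked for a value of at least log2(11) in at least 3 libraries of a comparison. With no filter, the lung minus heart difference was -1.80 in WT mice (adjusted limma p 0.0146) and -0.35 in KO mice (adjusted limma p 0.719), and neither was called.

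*Slc6a4*, the transporter gene, was higher in lung than in heart in both genotypes, and its KO libraries lay below its WT libraries in both organs. WT lungs read 7.81, 7.63 and 7.60 (log2 gene value), and WT hearts 5.70, 5.90 and 5.02. KO lungs read 6.68, 6.43 and 6.45, and KO hearts 3.82, 3.27 and 3.23. No library of any group overlapped with one of another group, and the order from high to low was WT lung, KO lung, WT heart and KO heart. In WT mice lung exceeded heart by 2.14 (SE 0.30, 95% interval 1.45 to 2.83), a 4.40-fold difference, with an adjusted p of 0.000359 by limma with Benjamini-Hochberg adjustment. In KO mice it did so by 3.08 (SE 0.28, 95% interval 2.43 to 3.72), or 8.44-fold, with an adjusted limma p of 2.04e-05. All 6 mice showed this direction, the lung exceeding the heart of the same mouse by 1.73 to 2.58 in WT and by 2.86 to 3.22 in KO mice. The step from 2.14 to 3.08 holds the genotype contrast that chose the gene and is not tested.

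A difference was called at an adjusted p under 0.05, a fold of at least 1.5 and a mean of at least 6 in the higher group. Lung and heart differ widely by that rule. In WT mice 50.2% of the 16636 genes tested were called, and 29.7% of those tested were called higher in lung. In KO mice 53.2% of 16802 were called, and 30.9% higher in lung. Of the serotonin genes, 2 of the 6 tested were called in each genotype, *Slc6a4* and *Maoa* both times, and both were higher in lung. These shares are near the background and are no result about the serotonin genes as a group. Without the minimum on the mean, 4 of 6 passed in each genotype, *Htr1b* and *Htr2b* joining, against 60.0% of all genes in WT and 64.8% in KO mice. The median over all genes tested was itself 0.30 in favour of lung in WT and 0.28 in KO mice.

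**Figure D1:**
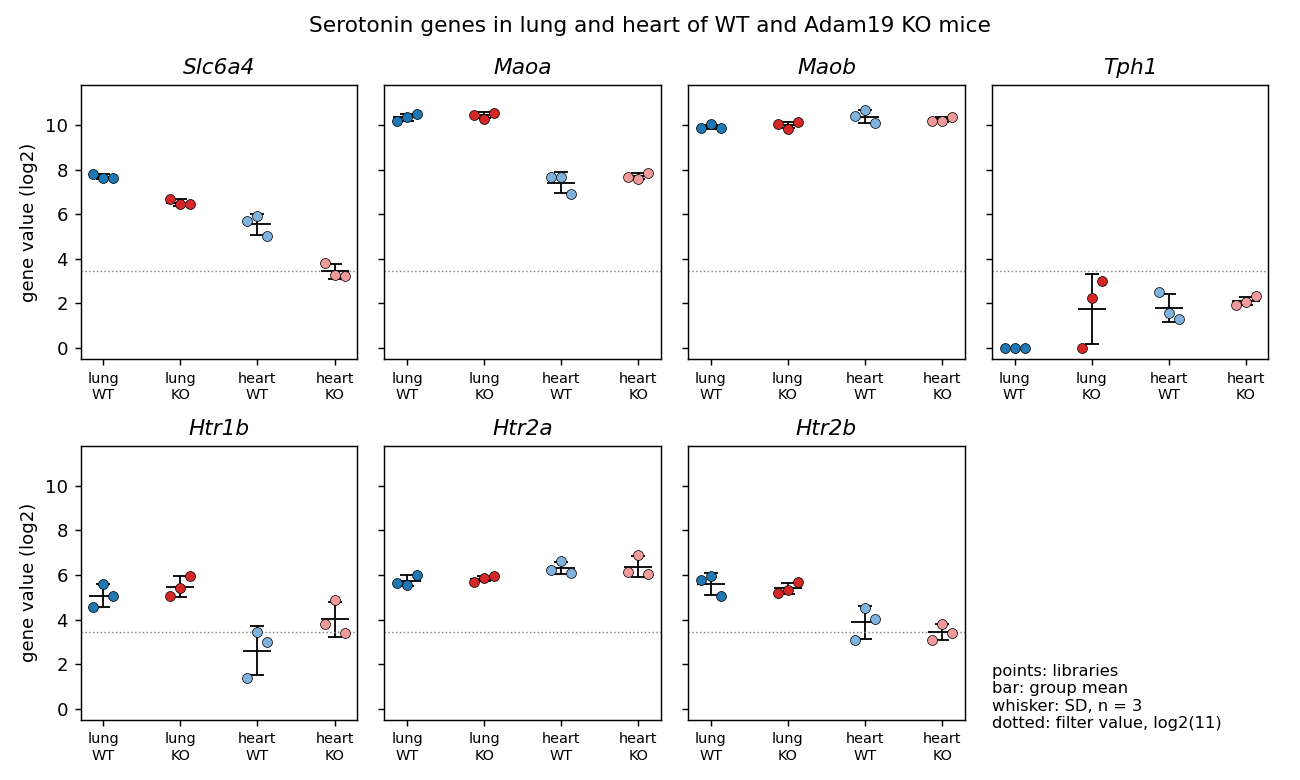
Gene value (log2, y axis) of each serotonin gene in each library, by group (x axis). Points are libraries, bars are group means, whiskers the SD (n = 3) and the dotted line the filter value of log2(11). *Slc6a4* steps down over the 4 groups without overlap, *Maoa* separates lungs (10.2 to 10.6) from hearts (6.88 to 7.85), and *Tph1* lies under the dotted line in every library.

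Between genotypes, the KO minus WT difference of *Slc6a4* was -1.16 in lung (SE 0.19, 95% interval -1.60 to -0.72), a 2.24-fold lower level. The highest KO lung and the lowest WT lung were 0.92 apart. In heart it was -2.10 (SE 0.39, 95% interval -2.99 to -1.22), 4.29-fold lower, with 1.20 between the nearest libraries. These are the values that drew attention to the gene and they stand here as a description. In reads, WT lungs held 187, 167 and 235 and KO lungs 120, 134 and 69.9, before the scaling between libraries. WT hearts held 55.2, 33.9 and 17.9 reads and KO hearts 14.4, 9.21 and 8.62, although the KO hearts were sequenced to 31784742 reads or more. For *Slc6a4*, relative counting error is therefore larger in the KO hearts than in any other group.

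KO libraries lay below all WT libraries for 6.40% of the genes tested in lung and 5.23% of those tested in heart, and in both organs for 0.272% of the 14330 genes tested in both. No serotonin gene was called between genotypes by limma, 0 of 6 tested in lung and 0 of 5 in heart, where *Htr1b* and *Tph1* did not pass the filter, and none of 6 was called in either organ by limma-voom. Over all genes, 0.0665% were called in lung and 0.0850% in heart, and nothing is read from the comparison of these shares. The mean of *Slc6a4* in WT hearts, 5.54, was under the minimum of 6. In the same fits without that minimum, 0 serotonin genes passed in either organ, *Slc6a4* included.

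**Figure D2:**
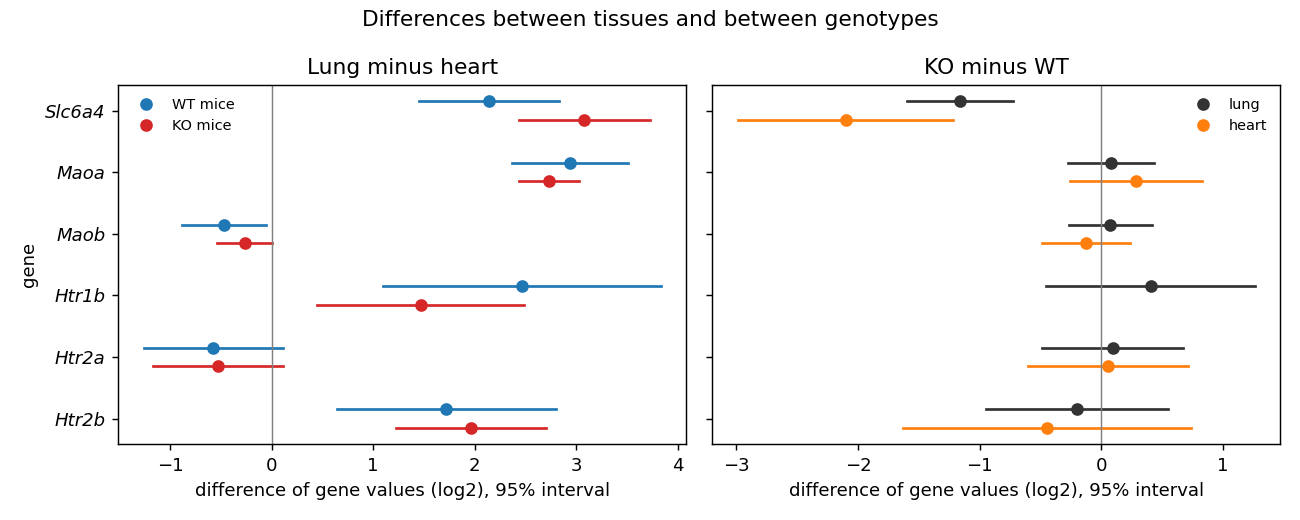
Differences of gene values (log2, x axis) for the tested serotonin genes (y axis), as points with 95% intervals from limma, lung minus heart on the left and KO minus WT on the right. *Slc6a4* and *Maoa* lie right of 0 in both genotypes on the left, and *Slc6a4* lies left of 0 in both organs on the right (-1.16 and -2.10). With library totals as the scale, the KO differences of *Maob* and *Htr2a* on the left change sign.

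*Slc6a4* lies on the plus strand of chromosome 11 (GRCm39 76888903 to 76923169), the chromosome that also holds the targeted *Adam19*, 30.9 Mb away. The annotation lists 4 transcripts, of which 1 protein-coding transcript with 14 exons and 3267 bases took 97.6% of the gene's reads. An antisense gene within it, *Gm12343*, was at 0 in all 12 libraries. None of its 31-base words occurred in transcripts of other genes, so that its reads were not shared with a copy. Within 1 Mb on either side of it, 27 other genes were tested in each organ and none was called. Their KO minus WT differences ran from -0.82 (*Mrm3*) to 0.29 (*Phf12*) in lung, median -0.11, and from -0.48 (*Coro6*) to 0.59 (*Trarg1*) in heart, median 0.0033. *Slc6a4* lay outside both ranges, but it was chosen by this contrast and its neighbours were not, so nothing is read from its place.

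**Figure D3:**
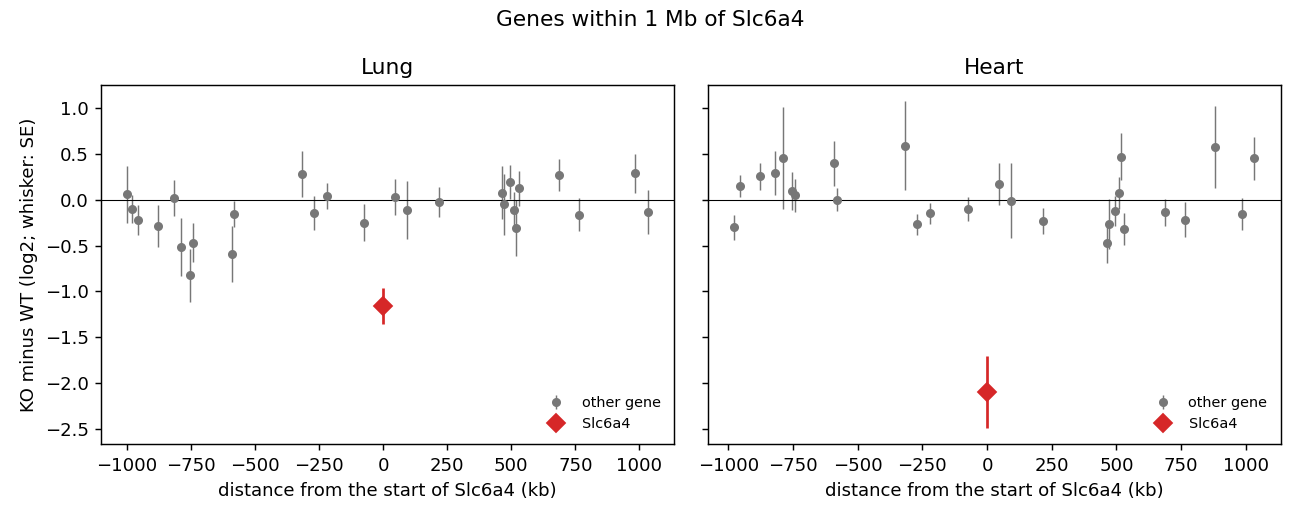
KO minus WT difference (log2, y axis) of each gene tested within 1 Mb on either side of *Slc6a4*, by the distance of its start from that of *Slc6a4* (kb, x axis), in lung (left) and heart (right). Whiskers are standard errors. The 27 grey points of each panel lie between -0.82 and 0.59, and *Slc6a4* (red) at -1.16 and -2.10. *Slc6a4* was chosen by this contrast and the other genes were not.

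Platelets and endothelium are known carriers of the transporter, so their markers are given beside these values. The summed level of 7 endothelial markers was 15.7 to 15.9 in lungs and 14.2 to 14.5 in hearts (log2), higher in lung as *Slc6a4* was. Single endothelial markers did not all share that order. *Vwf*, *Pecam1*, *Cdh5*, *Kdr* and *Cldn5* read higher in every lung than in any heart. *Emcn* overlapped between the organs, at 9.58 to 10.31 in lungs and 9.62 to 10.31 in hearts, and *Tie1* overlapped as well. Between genotypes the endothelial sum overlapped in lung and in heart. The 7 platelet markers summed to 7.90 to 8.33 in WT lungs and 7.66 to 7.94 in KO lungs, which overlap. The 4 of them that passed the filter all had lower means in KO lungs, by a median of 0.51. The others overlapped at low values. These were *Gp1ba* (1.04 to 2.67 in WT, 1.80 to 2.88 in KO lungs), *Gp1bb* (0 to 1.40, 0 to 1.498) and *Treml1* (2.24 to 3.01, 1.89 to 2.62). In hearts the platelet sum spanned 7.03 to 8.39 in WT and 7.33 to 8.01 in KO mice, a full overlap. There 2 platelet markers passed the filter, with differences of -0.093 and 0.089. Mast cell markers, 7 in number, overlapped between genotypes in both organs and summed higher in lung, at 11.7 to 12.1, than in heart, at 8.15 to 8.69. The lung sum came mostly from *Kit* (10.8 to 11.4) and *Hdc* (10.1 to 10.8). In hearts these read 6.98 to 7.75 and 3.98 to 5.76. Single mast cell markers did not share 1 order. *Mcpt4* read 3.13 to 4.64 in lungs and 3.90 to 5.64 in hearts, which overlap. The proteases *Cpa3* and *Cma1* overlapped between the organs, at 4.25 to 5.65 in lungs and 3.84 to 5.80 in hearts, while the tryptase *Tpsb2* was higher in hearts (4.30 to 5.47 against 2.86 to 4.0005) and the IgE receptor subunit *Ms4a2* in lungs (3.51 to 4.95 against 0 to 2.24). The 5 heart muscle markers all had lower means in KO lungs, by a median of 0.71. They summed to 13.6 to 14.5 in WT and 12.9 to 13.6 in KO lungs. The *Slc6a4* mean was also lower there, which is the contrast that chose it. Among WT lungs, replicate 3 read lowest for *Slc6a4* (7.60), and its heart muscle markers did not share 1 order. It read highest for *Myh6* (14.2) and *Actn2* (9.09), lowest for *Myl2* (6.10) and *Tnnt2* (9.28), and in the middle for *Ryr2* (10.865). *Myl2* read 8.31 in KO lung replicate 3, above all WT lungs (6.10 to 7.64). In KO hearts the smooth muscle markers (5 of 5 higher, summed level 14.0 to 14.3 against 13.2 to 13.5) and neuroendocrine markers (7.07 to 7.52 against 5.61 to 6.14) stood above WT. Only 2 of the 6 neuroendocrine markers passed the filter in heart. *Calca*, for 1, did not, at 0 in all WT hearts and 1.81, 0 and 1.42 in KO hearts. None of these markers was called between genotypes. The part that any of these cells had in the *Slc6a4* values was not tested.

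Lung epithelial markers in the hearts also varied. The 5 epithelial markers summed to 6.35 to 9.52 in WT hearts and 6.66 to 10.5 in KO hearts, and were highest among WT hearts in replicate 3, where *Sftpc*, a surfactant gene, read 7.71 and *Slc6a4* read its WT heart minimum of 5.02. Among KO hearts the sum was highest in replicate 1, where *Scgb1a1*, a club cell gene, read 10.2 and *Slc6a4* its KO heart maximum of 3.82. *Sftpb* was also highest there (6.29). *Sftpc* (7.53), *Ager* (6.03) and *Rtkn2* (4.97) were instead highest in KO heart replicate 2, where *Slc6a4* read 3.27. The part of lung epithelial RNA in the heart values was not tested.

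Over all 12 libraries, the genes whose values followed *Slc6a4* most closely by Pearson's r were the lncRNA *4933439K11Rik* (0.95, chromosome 1), *Ctns* (0.95, chromosome 11), which encodes the lysosomal cystine transporter, and the lncRNA *Gm57345* (0.95, chromosome 11). Over the 6 lung libraries alone they were *Adam19* itself (0.99), the lncRNA *AA465934* (0.99, chromosome 11) and *Npw* (0.99, chromosome 17), which encodes a neuropeptide. *AA465934* read 6.35 to 6.84 in WT lungs and 1.92 to 3.22 in KO lungs. *Npw* read 8.62 to 8.79 in WT lungs and 7.81 to 8.10 in KO lungs. The points share tissue and genotype, so these figures describe 12 or 6 libraries and no more.

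*Maoa*, the first of the breakdown enzymes, separated the organs clearly. WT lungs read 10.19, 10.36 and 10.51 and WT hearts 7.68, 7.68 and 6.88. KO lungs read 10.47, 10.28 and 10.56 and KO hearts 7.67, 7.59 and 7.85. Every lung lay above every heart, and KO and WT libraries of an organ overlapped. Lung exceeded heart by 2.94 in WT mice (SE 0.25, 95% interval 2.37 to 3.51), 7.67-fold, with an adjusted limma p of 2.05e-05. In KO mice the difference was 2.73 (SE 0.13, 95% interval 2.44 to 3.03), 6.65-fold, with an adjusted limma p of 5.77e-07. The lung was higher in 6 of 6 mice, by 2.51 to 3.62. The KO minus WT difference was 0.08 in lung (95% interval -0.27 to 0.44) and 0.29 in heart (-0.26 to 0.83).

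*Maob* was high in both organs. WT lungs read 9.87, 10.03 and 9.85 and WT hearts 10.40, 10.66 and 10.09. KO lungs read 10.03, 9.83 and 10.12 and KO hearts 10.20, 10.20 and 10.38. The heart was the higher organ in 6 of 6 mice and the libraries did not overlap within a genotype, but by small margins of 0.064 and 0.075. The lung minus heart difference was -0.47 in WT mice (SE 0.18, 95% interval -0.88 to -0.05, adjusted limma p 0.0513) and -0.26 in KO mice (SE 0.12, -0.53 to 0.0031, adjusted limma p 0.0691), and neither was called. With library totals as the scale, the KO difference was 0.43, while the median over all genes stood at 0.96 on that scale. Without WT heart replicate 3, the WT difference was -0.61 and was called. Over the alternatives its adjusted limma p ran from 0.0144 to 0.916 in WT and from 0.0105 to 0.212 in KO mice. Between genotypes *Maob* differed by 0.08 in lung (95% interval -0.27 to 0.42) and -0.12 in heart (-0.49 to 0.24), with overlapping libraries.

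The genes of the 2 oxidases are neighbours on chromosome X, *Maoa* on the plus strand (16485893 to 16554057) and *Maob* on the minus strand (16574807 to 16683686, GRCm39). Their ends face each other across 20749 bases. *Maoa* has 1 listed transcript of 15 exons and 4167 bases. *Maob* has 4, of which the one of 2457 bases took 99.9% of the reads. Of the 31-base words of *Maoa*, 6.75% also occurred in transcripts of other genes, and 0.133% of those of *Maob* did.

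Within a library, the level of *Maoa* per kilobase of transcript could be set against that of *Maob*, which removes any scaling between libraries. The ratio was 0.738, 0.744 and 0.927 in WT lungs and 0.802, 0.805 and 0.795 in KO lungs. In WT hearts it was 0.0894, 0.0744 and 0.0632, and in KO hearts 0.102, 0.0962 and 0.102. Lungs thus held nearly as much *Maoa* as *Maob* RNA, whereas hearts held 13.3 times more *Maob* than *Maoa* in WT and 10.02 times more in KO mice, as geometric means. On the log2 scale the ratio differed between lung and heart by 3.41 in WT and 3.00 in KO mice. An exact two-sided permutation test gave p = 0.10 in each genotype, the smallest that 3 against 3 libraries allow.

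**Figure D4:**
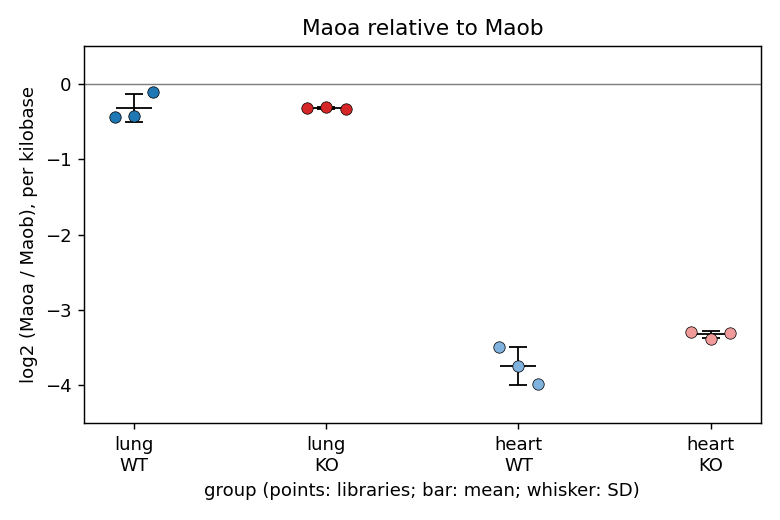
Ratio of *Maoa* to *Maob* per kilobase of transcript (log2, y axis) in each library, by group (x axis). Points are libraries, bars are means and whiskers the SD (n = 3). Lungs lie between -0.44 and -0.11 and hearts between -3.98 and -3.30, with no overlap.

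Genes that followed *Maoa* over the 12 libraries were *Pros1* (r = 0.9986), which encodes the anticoagulant protein S, the lncRNA *Gm4956* (0.9985) and *Sh3bgrl* (0.9972). *Maob* was followed less closely, by *Igf1* (0.95), the gene of a growth factor, *Hpf1* (0.94) and *Zfp9* (0.93).

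Of the receptors, *Htr1b* and *Htr2b* were higher in lung and *Htr2a* did not pass the test between organs, all at low levels. *Htr1b*, whose receptor lowers cyclic AMP, read 4.55, 5.59 and 5.07 in WT lungs and 1.37, 3.43 and 3.01 in WT hearts. KO lungs read 5.05, 5.42 and 5.97 and KO hearts 3.79, 4.87 and 3.37. Lungs lay above hearts in both genotypes, though by 0.18 in KO mice. Lung exceeded heart by 2.46 in WT (SE 0.59, 95% interval 1.098 to 3.83, adjusted limma p 0.0067) and by 1.47 in KO mice (SE 0.44, 0.45 to 2.49, adjusted limma p 0.016), 5.52- and 2.77-fold, with both means under the minimum for a call. The adjusted limma p in KO mice was 0.0619 without KO lung replicate 3 and 0.056 without KO heart replicate 3, and ran from 0.00242 to 0.0619 over all alternatives.

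The *Htr1b* values rest on few reads. WT hearts held 1.88, 5.59 and 3.88 estimated reads and KO hearts 14.7, 31.4 and 3.28. The 3.28 reads of KO heart replicate 3 were all assigned to a short transcript of 1273 bases, which had no reads in the other 11 libraries. The deposited gene value there, 3.37, stood above the 1.998 that its summed reads give on the same scale, and with summed transcripts the KO lung minus heart difference was 1.96 in place of 1.47. The lncRNA *D430036J16Rik* overlaps *Htr1b* on the opposite strand (chromosome 9, where *Htr1b* spans 81510344 to 81515902 on the minus strand). It read 6.74 to 7.81 in lungs and 0 to 1.66 in hearts, so that it was also higher in lung. Of the 31-base words of *Htr1b*, 19.1% occurred in transcripts of other genes, this lncRNA among them. Library preparation kept strand, and how far such reads were split was not tested.

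*Htr2a*, whose receptor contracts vessels and activates platelets, read 5.64, 5.56 and 6.02 in WT lungs and 6.22, 6.63 and 6.09 in WT hearts. KO lungs read 5.69, 5.87 and 5.94 and KO hearts 6.15, 6.91 and 6.04. Hearts lay above lungs in 6 of 6 mice, but the libraries came within 0.072 and 0.10 of each other. The lung minus heart difference was -0.57 in WT (SE 0.30, 95% interval -1.26 to 0.11, adjusted limma p 0.125) and -0.53 in KO mice (SE 0.28, -1.17 to 0.11, adjusted limma p 0.116), and neither passed. With library totals as the scale the KO difference was 0.17. The gene has a single transcript of 6542 bases on chromosome 14 (74877344 to 74946934, plus strand) and shared no 31-base word with other genes.

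*Htr2b* read 5.77, 5.97 and 5.03 in WT lungs and 3.09, 4.52 and 4.01 in WT hearts. KO lungs read 5.18, 5.32 and 5.67 and KO hearts 3.08, 3.81 and 3.39. No lung overlapped with a heart of its genotype. Lung exceeded heart by 1.72 in WT mice (SE 0.47, 95% interval 0.64 to 2.80, adjusted limma p 0.0122), 3.29-fold. Without WT lung replicate 2 that p was 0.0524, the highest over all alternatives, which began at 0.00231. In KO mice it did so by 1.96 (SE 0.32, 1.23 to 2.70, adjusted limma p 0.000627), 3.90-fold. Hearts held 8.54 to 14.5 estimated reads and lungs 27.4 to 64.2. *Htr2b* lies inside *Psmd1*, a proteasome gene on the other strand (chromosome 1, 86026748 to 86039736 for *Htr2b*), and 9.75% of its 31-base words occurred in *Psmd1* transcripts. *Psmd1* was higher in hearts, at 11.7 to 12.1, than in lungs, at 10.9 to 11.1, which is the opposite order.

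Between genotypes the receptors' libraries overlapped in both organs. *Htr1b* differed by 0.41 in lung (95% interval -0.45 to 1.26). In heart it did not pass the filter, and its KO minus WT difference of means was 1.40, or 1.18 by limma-voom. *Htr2a* differed by 0.10 in lung (-0.49 to 0.68) and 0.05 in heart (-0.60 to 0.71), and *Htr2b* by -0.20 in lung (-0.95 to 0.55) and -0.45 in heart (-1.63 to 0.74). The sign of *Htr2b* in lung turned with the scaling, to 0.14 with summed transcripts and 0.43 by limma-voom, where the median over all genes was 0.30. In heart, the intervals of *Htr2a* and *Htr2b* reached past 1.5-fold in both directions.

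The genes most like the receptors over the 12 libraries were the lncRNA *4833413G10Rik* (r = 0.95), *Lypd6* (0.94) and the lncRNA *4732471J01Rik* (0.94) for *Htr1b*. For *Htr2a* they were *Gm43668* (0.92), *9430062P05Rik* (0.91) and *Tpp2* (0.90), and for *Htr2b* they were *Mapkbp1* (0.97), *Nsd3* (0.97) and *Kctd21* (0.97).

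Levels can be compared between genes only per length of transcript. In WT lungs the order per kilobase on the linear scale was *Maob* (394 ± 27.0, SD, n = 3), *Maoa* (315 ± 34.3), *Slc6a4* (62.8 ± 4.88), *Htr2b* (23.4 ± 7.42), *Htr2a* (8.09 ± 1.45), *Htr1b* (7.23 ± 2.63) and *Tph1*, listed at 0. All neighbours in that order were apart in every library except *Htr2a* and *Htr1b*, which overlapped. KO lungs kept the order of the first 4, with *Slc6a4* at 28.0 ± 2.79, and placed *Htr1b* and *Htr2a*, again overlapping, after them.

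In WT hearts *Maob* (550 ± 107) and *Maoa* (42.0 ± 12.1) again led. *Slc6a4* (14.5 ± 4.32) overlapped with *Htr2a* (12.2 ± 2.52), and *Htr2a* with *Htr2b* (7.11 ± 3.47). In KO hearts *Slc6a4*, at 3.09 ± 0.824, had a lower mean than all 3 receptors, overlapping with *Htr1b* (3.56 ± 2.13) and with *Htr2b*, and lay apart from *Tph1* (1.104 ± 0.198). By its mean the transporter thus ranked 3 of 7 in WT lungs, KO lungs and WT hearts and 6 of 7 in KO hearts, a shift that includes the contrast it was chosen by.

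**Figure D5:**
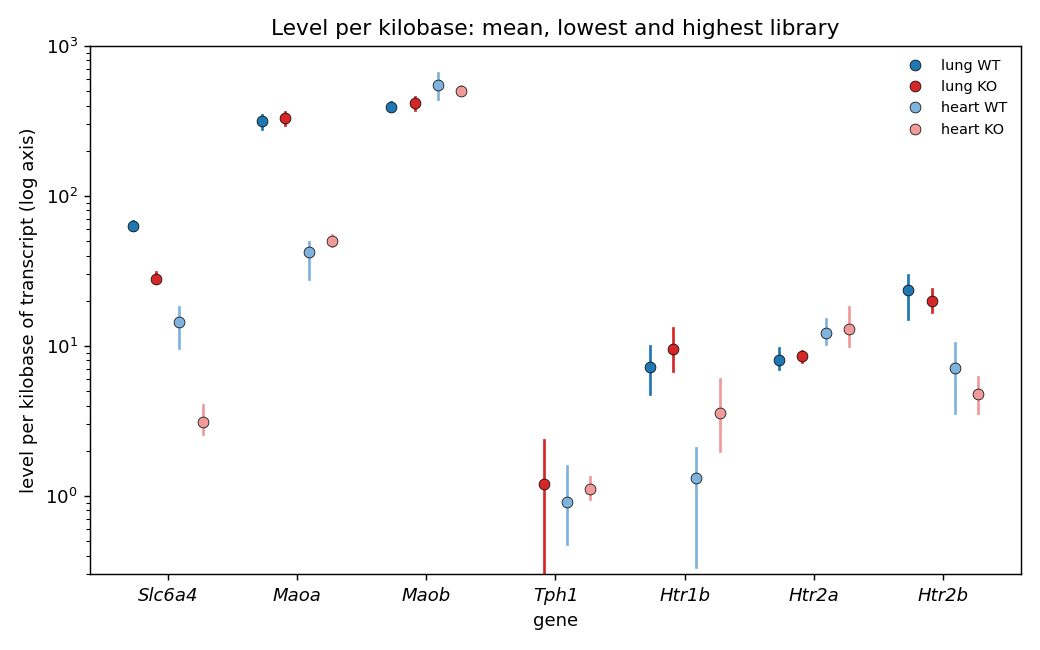
Level per kilobase of transcript (log axis, y) of each serotonin gene (x axis) in the 4 groups. Points are means and lines run from the lowest to the highest of 3 libraries. *Tph1* in WT lungs is at 0 and has no point, the line of *Tph1* in KO lungs runs down to 0 and is cut at the axis, and *Slc6a4* ranges from 62.8 in WT lungs to 3.09 in KO hearts.

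A wider list of 35 serotonin genes, chosen with earlier results of these libraries known, put the 7 in context. In WT mice 20 of the 35 were tested between lung and heart, and 5 were called higher in lung and 4 higher in heart, with a median difference of 0.24, against 50.2% of all genes called. In KO mice 22 were tested, and again 5 were higher in lung and 4 in heart, with a median of -0.02, against 53.2% of all genes. Between genotypes none was called by limma, of 19 tested in lung and 18 in heart, where 2 and 6 had an unadjusted p under 0.05, against 5.93% and 7.46% of all genes. By limma-voom none was called either, with 2 of 19 and 4 of 17 against 16% and 5.81% of all genes. The medians over all genes were 0.30 in WT and 0.28 in KO mice. Between genotypes the list had a median difference of -0.11 in lung and 0.26 in heart, against 0.01 and 0.03 over all genes.

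Among synthesis genes, *Pcbd1* and *Spr*, which serve the pterin cofactor of tryptophan hydroxylase, had opposite tissue orders. *Pcbd1* was higher in lung by 3.37 in WT and 2.09 in KO mice (adjusted limma p 0.000545 and 0.000141). *Spr* was higher in heart by 1.23 and 1.57 (differences of -1.23 and -1.57, adjusted limma p 0.00049 and 8.4e-06). Of the same cofactor pathway, *Pts* was called in WT mice (0.74) and differed by -0.07 in KO mice (adjusted limma p 0.762). *Qdpr* was called higher in heart in WT mice (-0.67), and its KO difference of -0.53 (adjusted limma p 0.00538) was under the fold of 1.5. Neither of these 2 genes was called between genotypes in lung or in heart. A comparison of the tissue differences between genotypes is not reported here. *Tph2*, the brain form of the hydroxylase, stayed at 1.75 or lower in every library.

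Among low-affinity transporters, *Slc22a3*, an organic cation transporter that also carries serotonin, had the opposite tissue order to *Slc6a4*. It read 5.46 to 6.21 in lungs and 8.78 to 9.31 in hearts, a lung minus heart difference of -3.42 in WT (adjusted limma p 4.84e-06) and -3.05 in KO mice (8.17e-06). The vesicle transporter gene *Slc18a1* was higher in lung by 3.77 and 2.75 (adjusted limma p 0.000816 and 0.000449), under the minimum mean for a call.

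Downstream of the oxidases, aldehyde dehydrogenases turn the product into its acid. *Aldh1a1* was higher in lung by 5.59 in WT and 5.10 in KO mice (adjusted limma p 1.68e-06 and 7.04e-08). *Aldh1b1* was higher in heart, with differences of -2.99 and -3.81 (adjusted limma p 9.89e-06 and 3.67e-05). *Aldh2* was called higher in lung in KO mice (0.82, adjusted limma p 0.00809) and read 0.73 higher in WT mice (adjusted limma p 0.0536). Of the partners of the transporter and receptors, *Itgb3*, the integrin subunit known to bind the transporter in platelets, was higher in lung by 2.23 and 1.78 (adjusted limma p 3.56e-05 and 4.98e-05), and *S100a10* by 1.64 and 0.96 (adjusted limma p 0.00041 and 0.000535).

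Among the 11 other receptors none reached the minimum mean for a call. *Htr2c* read 4.40 to 5.47 in the 6 lungs and 0 in all 6 hearts. *Htr3a*, a subunit of the ion channel receptor, read 2.34 to 4.58 in WT hearts, 5.13 to 6.41 in KO hearts and at most 2.05 in lungs. *Htr7* read 3.88 to 4.72 in hearts and at most 2.29 in lungs. *Htr1a*, *Htr5a*, *Htr5b* and *Htr6* were at 0 in all 12 libraries, as was *Asmt*, the last enzyme of melatonin synthesis.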

How the data were processed

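Whole lung and heart of 3 *Adam19* WT and 3 KO mice were frozen, total RNA was isolated, and stranded libraries were sequenced on an Illumina NextSeq. The authors quantified reads against GENCODE vM33 transcripts (mm39) by Salmon 1.10.0, and their differential expression used limma-voom 3.54.2. Their GEO tool list also names cutadapt, STAR and limma 3.42.2. The deposited gene and transcript tables hold log2 values. Transcript values equal log2(1 + estimated count), and gene values carry a constant for each library, from -0.63 to 0.80, read from genes with a single transcript. Gene values of genes with several transcripts are not the plain sum, and how they were made is not given in the sources used here. Positions came from GENCODE vM39 (GRCm39), which held 55128 of the 55679 genes (99.0%).

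The deposited gene values were fitted with limma 3.58.1 (R 4.3.3, eBayes with trend), 6 libraries per comparison, over all genes with a value of at least log2(11) in at least 3 libraries, with Benjamini-Hochberg adjustment. The fit was tested on simulated data. Intervals are 95% limma intervals. Levels per kilobase are 2 to the power of the gene value, minus 1, over the transcript length weighted by counts. A gene was named when it was a member, a list gene called in a comparison or at 0 in the other organ, one of the 3 genes most like a member, or one that overlaps it; the genes at 0 in every library, *Tph2*, *Slc18a1*, *Htr3a*, *Htr7* and single neighbours and markers were named after their values were seen. The members and lists were chosen with earlier results of these data known. Mouse numbers pair lung with heart, yet deviations from the group means correlated by only -0.068 to 0.14 between the organs of a mouse (17666 genes). The labels do not say that libraries of a group were prepared apart, beyond coming from different mice. Alternatives covered filters, scaling, the pseudocount, limma-voom, the mouse as a block and each library left out. Single genes of the marker and serotonin lists are counted in their lists but not reported here by name.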

Additional observations from a re-analysis of the deposited data

How the results depend on the processing

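*Slc6a4* and *Maoa* were called between lung and heart under each alternative that tested them, 18 in WT mice and, in KO mice, 17 for *Slc6a4* and 18 for *Maoa*. The count of 2 members called in each genotype rose to 4 without the minimum on the group mean, alone or with 1 model over all 12 libraries, the latter an addition made after seeing the data. In KO mice it fell to 1 when every library had to pass the filter, since *Slc6a4* in KO hearts was then not tested. In heart the count between genotypes went from 0 to 1, *Slc6a4*, with all 12 libraries and no minimum, which is the contrast that chose the gene and supports nothing. With the mouse as a replicate block 2 members were called in each genotype, and the block changed no call. Scaling to library totals (limma-voom on summed transcripts) moved the median lung minus heart difference over all genes from 0.28 to 0.96 in KO mice and from 0.30 to 0.74 in WT mice, and that of KO minus WT lungs from 0.01 to 0.30. On that scale the KO differences of *Maob* (0.43) and *Htr2a* (0.17) reversed, but relative to the median they were -0.53 and -0.79, against -0.54 and -0.81 before. *Slc6a4* in lung was -0.87 KO minus WT on that scale, or -1.17 relative to the median. Its heart difference was -1.58 with a pseudocount of 8. With 1 library left out, *Slc6a4* ranged from -1.24 to -1.098 in lung and from -2.36 to -1.92 in heart. The lung KO minus WT difference of *Htr2b* turned from -0.20 to 0.43 on that scale (0.13 relative to the median) and to 0.14 with summed transcripts. Low read counts limit *Tph1* in both organs, and *Htr1b*, *Htr2b* and KO *Slc6a4* in hearts.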
